A study of Mus musculus and Rattus norvegicus with 6 samples.

Results

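The miRNAs described here are miR-126, miR-143, miR-145, miR-199, miR-214, miR-221 and miR-222, which are known for their abundance in endothelial cells, pericytes, smooth muscle and fibroblasts. Every row of the deposited tables with 1 of these 7 miRNA numbers was taken, whatever its letter or arm, which gave 15 of 764 rows in rat and 19 of 1915 rows in mouse, 34 of 2679 rows in all. In the mouse table their main arms are mmu-miR-126a-3p, mmu-miR-143-3p, mmu-miR-145a-5p (rno-miR-145-5p in rat), mmu-miR-199a-3p, mmu-miR-214-3p, mmu-miR-221-3p and mmu-miR-222-3p, written below without the prefix. Retinal small RNA of Sprague Dawley rats and C57BL/6 mice, all wild type and aged 9 weeks, had been sequenced in 3 libraries per species. The rat libraries are called r1, r2 and r4 and the mouse libraries m1, m3 and m4, as the tables' columns name them. The labels give no treatment or allele in either species, and strain changes with the species, so species and strain cannot be told apart. They speak of biological samples in triplicate but do not say whether each library came from a separate animal, so p-values measure the spread between libraries, which may be technical in part.

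A miRNA hairpin is cut into a 5p and a 3p arm, and the arm that is loaded into Argonaute lowers the output of messenger RNAs that pair with its seed, bases 2 to 8. The retina is fed by capillaries of endothelial cells wrapped in pericytes, with smooth muscle around the arterioles. In mouse and zebrafish, miR-126 is the endothelial miRNA of the gene Egfl7 and supports vessel integrity through growth factor signalling. The pair miR-143 and miR-145, made from 1 transcript, maintains the contractile state of smooth muscle. The pair miR-199a and miR-214, made from the transcript Dnm3os, is known from mesenchyme and fibroblasts. The pair miR-221 and miR-222 acts on Kit and on the cell cycle inhibitor Cdkn1b in endothelial and smooth muscle cells. All 7 are also made in other cells, and in whole retina fewer cells of a type and less RNA per cell cannot be told apart.

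The mature sequences of the mouse miRNAs are shown because 2 results below turn on them: names that share a sequence, and partners that share a seed. They are RefSeq's for GRCm38.p6, which lists 11 of the 19 mouse names, read 5′ to 3′ with the seed in capitals. The rat sequences are not used here, and those of miR-143 and miR-145 are not shown.
miR-126a-3p: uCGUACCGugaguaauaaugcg
miR-199a-3p: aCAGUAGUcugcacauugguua
miR-199b-3p: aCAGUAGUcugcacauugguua
miR-199a-5p: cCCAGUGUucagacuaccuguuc
miR-214-3p: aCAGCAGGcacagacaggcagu
miR-221-3p: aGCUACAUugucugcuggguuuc
miR-222-3p: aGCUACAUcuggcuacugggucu
The 2 last share their first 8 bases, and so the whole seed, but only 11 of 23 positions overall. The miR-199a-3p and miR-199b-3p sequences are the same, so a read of this sequence fits both names. The seeds of miR-199a-3p and miR-214-3p differ, although both miRNAs start with the same 4 bases.

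In the mouse genome (GRCm38.p6) the hairpin of miR-126a lies at chr2:26591357-26591429 on the plus strand, inside Egfl7 and inside an exon of an annotated transcript of it. The hairpins Mir199a-2 (chr1:162217814-162217923, plus strand) and Mir214 (chr1:162223368-162223477, plus strand) lie in exons of the noncoding transcript Dnm3os, antisense to Dnm3, with 5444 bases between them. A second copy of miR-199a, Mir199a-1 (chr9:21496495-21496564, minus strand), lies antisense to Dnm2, and Mir199b (chr2:32318460-32318569, plus strand) lies antisense to Dnm1, both outside exons. Mir221 (chrX:19146294-19146388) and Mir222 (chrX:19146893-19146971) share the minus strand, with 504 bases between them, and no other gene of the annotation holds them.

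The rat libraries held 24169628 to 28198305 counts and the mouse libraries 27843590 to 30514632. Photoreceptor miRNAs (miR-183-5p, miR-96-5p and miR-182) summed to 360641 to 488361 CPM (a count scaled to a common total of all counts) in rat and 434212 to 463511 CPM in mouse. The highest rat sum was that of r1. Neuronal miRNAs (miR-124-3p, miR-9-5p and miR-128-3p) summed to 52104 CPM in r1, 91154 in r2 and 91613 in r4. In mouse they summed to 72381 to 75566 CPM. Rat library r1 stood apart from r2 and r4. On the scaled level explained below, it was the lowest rat library for 8 of the 13 members tested and the highest for 5. In CPM of all counts it was the lowest for most of them. These include miR-126a-3p, miR-221-5p and miR-222-3p, for which it was the highest on the scaled level. Of the lens and cornea miRNAs, miR-184 stood at 9369 CPM in r1, 1761 in r2 and 1119 in r4, whereas miR-205 was lowest in r1, at 4.72 CPM, with 12.02 in r2 and 16.63 in r4. Mouse libraries varied in miR-184 too, with 1246 CPM in m1, 308 in m3 and 986 in m4. Results that rest on r1 are given with and without it.

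Together the members held a small part of each retina's miRNA counts. Their share was 0.801% in r1, 0.799% in r2 and 0.841% in r4 of rat, against 0.457% in m1, 0.545% in m3 and 0.507% in m4 of mouse. Every rat library lay above every mouse library, at a mean of 0.814% in rat and 0.503% in mouse, with an exact two-sided permutation p of 0.1, the smallest that 3 against 3 libraries allow. The names of miR-143 and miR-126 made up 94.1% to 97.3% of the members' counts in rat and 91.8% to 92.1% in mouse. Most of the gap in mean share came from miR-143-3p, at 0.586% of all counts in rat and 0.286% in mouse. The next name, miR-126a-3p, held 0.184% in rat and 0.173% in mouse. Of the members' counts, miR-143 made up more and miR-126 less in every rat library than in every mouse library. So the higher sum mainly follows miR-143-3p and does not describe the members as a set.

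Within each retina miR-143-3p led the members, at 5862 CPM ± 597 in rat and 2862 CPM ± 241 in mouse (SD, n = 3 each). It ranked 27 among the 643 rat names with a count and 35 among the 1294 such mouse names. Endothelial miR-126a-3p came next, at 1838 CPM ± 465 in rat and 1726 CPM ± 170 in mouse (SD, n = 3 each), with rank 43 in rat and 46 in mouse. Its range over the libraries did not overlap that of miR-143-3p in either species. Nor did it overlap that of the next name, miR-222-3p in rat, 14.5-fold lower, and miR-199a-3p in mouse, 19.4-fold lower. Below the gap, the rat order miR-222-3p, miR-221-3p, miR-145-5p, miR-199a-3p, miR-126a-5p, miR-145-3p and miR-221-5p had overlapping ranges at every step. In mouse, miR-199a-3p (88.8 CPM), miR-199b-3p (88.7), miR-221-3p (85.2) and miR-222-3p (71.5) overlapped with their neighbours in the order. The miR-199a-3p and miR-199b-3p rows count the same sequence, as described below. Where its reads were divided in equal parts, its mouse level is the sum of both rows, nearer to miR-126a-3p and further from miR-221-3p. The lowest main arm was miR-214-3p, at 1.03 CPM ± 0.125 in rat and 0.973 CPM ± 0.336 in mouse (SD, n = 3 each). Counts of different miRNAs also depend on how well each ligates to the library adapters, so these orders are of counts and not of molecules.

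**Figure D1:**
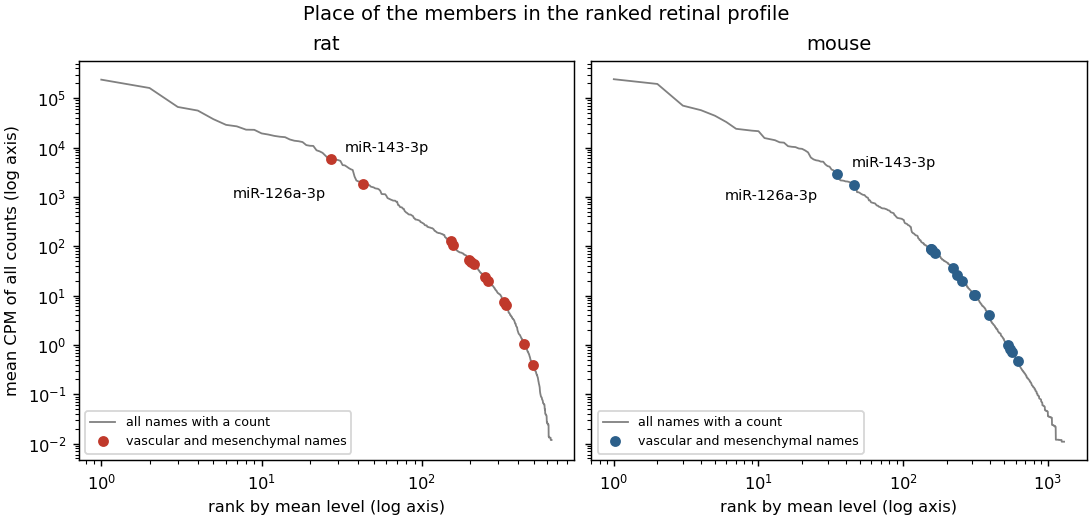
Mean level of every miRNA name with a count (line) against its rank in rat (left) and mouse (right), both axes logarithmic, with the vascular and mesenchymal names as points. In each species miR-143-3p (rank 27 in rat, 35 in mouse) and miR-126a-3p (rank 43 in rat, 46 in mouse) stand well above the other members.

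For the comparison between species, 585 names were joined, 542 by exact name and 43 that differ by the letter a, among them mouse miR-145a with rat miR-145. Of the 34 member rows, 14 pairs were joined, and 13 passed the filter on low counts. Levels below are scaled CPM, which is CPM over the joined names after TMM scaling (a scaling by the trimmed mean of the log ratios between libraries). Tests are edgeR's quasi-likelihood test with Benjamini-Hochberg adjustment over all 427 names tested, and a miRNA is called at an adjusted p under 0.05. Of the 13 tested members, 4 were called higher in rat, 3 lower and 6 were not called. One of the 3, miR-222-5p, passed the filter only through its mouse libraries, where it was higher. Among all 427 names 50.4% were called, 24.1% as higher and 26.2% as lower, so the members' count is near the background. The median log2 difference was -0.06 over the tested members and 0.03 over all names, and the median size of the difference 0.60 and 0.64. Rat and mouse libraries did not overlap for 9 of the 13 members, against 59.7% of all names.

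**Figure D2:**
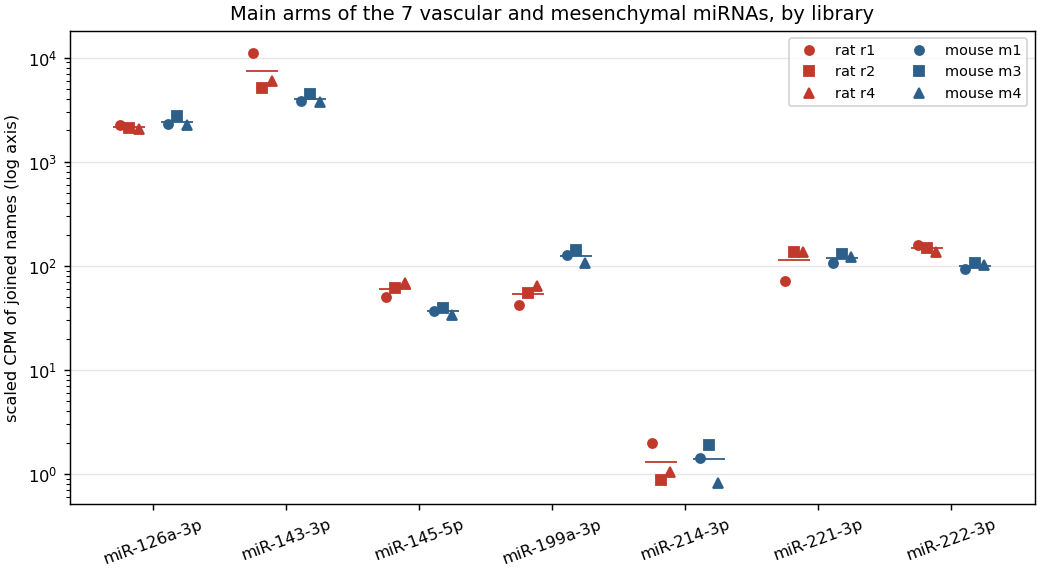
Scaled CPM (log axis) of the main arm of each of the 7 miRNAs in every library, rat in red to the left of mouse in blue; horizontal lines are means of 3 libraries. The rat points of miR-143-3p, miR-145-5p and miR-222-3p lie above the mouse points, those of miR-199a-3p and, narrowly, miR-126a-3p below.

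The endothelial miR-126a-3p was not called different with all libraries. Its scaled level was 2249.9 in r1, 2092 in r2 and 2058 in r4 of rat, against 2287 in m1, 2752 in m3 and 2251 in m4 of mouse. On this scale the rat libraries lay just below the mouse libraries, and r1 and m4 were almost level. In CPM of all counts the order differed. The level was 1307 in r1, 2174 in r2 and 2033 in r4, against 1552, 1892 and 1736 in m1, m3 and m4. There r2 and r4 lay above every mouse library and r1 below every one. The scaled log2 difference of -0.19 ± 0.15 (SE) was not called by edgeR (adjusted p = 0.322). Without r1 it was -0.21 and called (adjusted p = 0.0268), where 70.8% of all names tested were called. With library totals of the joined names in place of TMM the sign turned, to 0.16 (adjusted p = 0.486). The 5p arm, miR-126a-5p, had 355 counts in r1, 1512 in r2 and 1532 in r4, against 910 in m1, 1193 in m3 and 1002 in m4. Library r1 fell below all others and r2 and r4 above all others on this raw scale, so the species overlapped; the scaled difference was -0.13 ± 0.29 (adjusted p = 0.748).

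The hairpin of miR-126b lies on the minus strand at chr2:26591363-26591420, across from that of miR-126a. The 2 names are shown together because miR-126b-5p pairs with 19 bases of miR-126a-3p.
miR-126a-3p: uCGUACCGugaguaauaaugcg
miR-126b-5p: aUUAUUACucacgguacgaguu
Here too the capitals are seeds. Rat miR-126b and mouse miR-126b-3p and miR-126b-5p had 0 counts in all libraries, which allows a level of up to 0.0386 CPM in rat and 0.0347 CPM in mouse (3 counts over the 3 libraries; counting error only). The name miR-145b, in the mouse table only, was also at 0, with the same limit.

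The smooth muscle and pericyte miRNA miR-143-3p was higher in rat. Its scaled level was 11129 in r1, 5074 in r2 and 5917 in r4 of rat, against 3841 in m1, 4490.0 in m3 and 3753 in m4 of mouse. All rat libraries lay above all mouse libraries, with r1 far above the other 2 rat libraries. The log2 difference was 0.87 ± 0.29 (adjusted p = 0.0347). Without r1 it was 0.46 (adjusted p = 0.000523), and the call was lost without m1 (adjusted p = 0.102), m3 (0.0840) or m4 (0.134). In CPM of all counts r1 was less apart, with 6466 in r1, 5272 in r2 and 5846 in r4, against 2607, 3086 and 2894 in m1, m3 and m4. Its partner miR-145-5p was at 50.2 in r1, 60.9 in r2 and 68.2 in r4 scaled CPM, against 36.9 in m1, 39.6 in m3 and 33.9 in m4. Here r1 was the lowest rat library, yet above every mouse library, and the log2 difference was 0.70 ± 0.17 (adjusted p = 0.00876). This rise stayed called when any 1 library was left out and with every scaling tried.

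Neither minor arm of this pair was called with all libraries. The miR-143-5p counts were 93 in r1, 200 in r2 and 308 in r4, against 92 in m1, 126 in m3 and 128 in m4, and the scaled log2 difference of 0.60 ± 0.24 was not called (adjusted p = 0.0684). Every rat library was above every mouse library on the scaled level, though not in raw counts. It was called without r1 (0.75, adjusted p = 0.00447), with exact names only (adjusted p = 0.0491) and by DESeq2 (adjusted p = 0.0310). The miR-145-3p counts were 291 in r1, 772 in r2 and 854 in r4, against 484 in m1, 626 in m3 and 620 in m4. Their scaled ranges overlapped, with a log2 difference of -0.05 ± 0.19 (adjusted p = 0.835). The pigment epithelium miRNAs miR-204-5p and miR-211-5p summed to 24512 to 30822 CPM in rat and 13778 to 16134 CPM in mouse. Both were higher in every rat library. Epithelial miRNAs (miR-141, miR-200a, miR-200b, miR-200c and miR-429) summed to 48.6 to 72.1 CPM in rat and 16.6 to 43.3 CPM in mouse; miR-200b and miR-200c overlapped between the species and the other 3 were higher in every rat library. Red blood cell miRNAs (miR-451, miR-144-3p and miR-486) summed to 162 to 295 CPM in rat and 104 to 110 CPM in mouse, but this sum followed miR-486 alone. The red cell marker miR-451 was lower in every rat library, at 0.662 to 3.56 CPM in rat and 9.12 to 11.6 CPM in mouse, and miR-144-3p overlapped. The part of the pigment epithelium and epithelial miRNAs in the higher levels of miR-143-3p and miR-145-5p was not tested.

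The mesenchymal miR-199a was lower in rat on both arms. Its 3p arm had a scaled level of 41.9 in r1, 54.3 in r2 and 64.0 in r4 of rat, against 127 in m1, 142.8 in m3 and 106 in m4 of mouse. The species were well apart, with the highest rat library below the lowest mouse library. The log2 difference was -1.23 ± 0.20 (adjusted p = 0.00134). For miR-199a-5p the counts were 95 in r1, 191 in r2 and 227 in r4, against 307 in m1, 349 in m3 and 241 in m4. The log2 difference was -0.98 ± 0.21 (adjusted p = 0.00558), again without overlap in scaled CPM. With library totals alone the falls were smaller and not called, at -0.83 for the 3p arm (adjusted p = 0.0640) and -0.61 for the 5p arm (0.122). That scaling moved the median of all names up by 0.37 on the log2 scale. Of its 188 called names, 44.0% of those tested, 138 were higher and 50 lower, a share of 73.4% higher against 47.9% with TMM. Striated muscle miRNAs (miR-1, miR-133a-3p and miR-206-3p) summed to 44.3 to 66.9 CPM in rat and 642 to 883 CPM in mouse, nearly all of the mouse sum from miR-1a-3p. The sum and miR-133a-3p were lower in every rat library, as miR-199a was, but miR-206-3p was higher in every rat library, at 27.1 to 32.6 CPM in rat and 15.9 to 19.3 CPM in mouse. Their part in that result was not tested.

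The mouse table counts the shared 3p sequence under 2 names. The miR-199a-3p and miR-199b-3p rows held 2408 and 2403 counts in m1, 2995 and 2992 in m3, and 2305 and 2304 in m4. They differed by 1 to 5 counts, so the same reads stand under both names, either in full or in equal parts, which cannot be told apart here. The rows of the 5p arms were far from equal: miR-199a-5p held 307, 349 and 241 counts in m1, m3 and m4, and miR-199b-5p 25, 27 and 20. The miR-199b-5p sequence was not compared with that of miR-199a-5p, so how fully reads separate these names was not checked. The miR-199a share of these 5p counts was 92.3% to 92.8%. The rat table used here has no miR-199b row. Where the mouse reads were divided in equal parts, the mouse level is the sum of both rows, and the log2 difference of miR-199a-3p in rat becomes -2.23; this sum was chosen after the data were examined.

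The partner miR-214 was near the limit of detection in both retinas. Its 3p arm had 28 counts in r1, 23 in r2 and 29 in r4, against 27 in m1, 40 in m3 and 18 in m4. The species overlapped, and the log2 difference of -0.16 ± 0.41 was not called (adjusted p = 0.784). Its 5p arm was at 0 counts in all 3 rat libraries, against 15 in m1, 17 in m3 and 9 in m4, and did not pass the filter. Over the 3 libraries of each species, the mouse level of 0.474 CPM was 12.3-fold the rat limit of 0.0386 CPM, which is 3 counts over the group. The mouse level is taken here without its counting error or its spread between libraries, so 12.3 is not a lower bound. The mouse hairpin Mir214 is shown with both arms in capitals, the 5p arm first.
Mir214 hairpin: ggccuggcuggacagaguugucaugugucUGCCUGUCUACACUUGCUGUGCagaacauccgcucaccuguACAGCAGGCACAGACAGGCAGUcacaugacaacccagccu
The rat sequence of the arm was not compared with it.

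Of the X-linked pair, miR-222-3p was higher in rat and miR-221-3p was not called. The scaled level of miR-222-3p was 158 in r1, 148 in r2 and 137 in r4 of rat, against 92.6 in m1, 107 in m3 and 101 in m4 of mouse. No rat library came down to the highest mouse library, and the log2 difference was 0.55 ± 0.14 (adjusted p = 0.0115). The call was lost without m1 (adjusted p = 0.0725). For miR-221-3p the level was 72.1 in r1, 134 in r2 and 136 in r4, against 106 in m1, 129.6 in m3 and 122 in m4. Library r1 lay below all mouse libraries and r2 and r4 above them. The log2 difference was -0.06 ± 0.25 (adjusted p = 0.846), and without r1 it was 0.19 (adjusted p = 0.106).

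The minor arm miR-221-5p was higher in rat. The miR-221-5p counts were 385 in r1, 539 in r2 and 625 in r4, against 278 in m1, 320 in m3 and 277 in m4, and the scaled difference of 0.72 ± 0.18 was called (adjusted p = 0.0112). Without m4 the adjusted p was 0.0509. The miR-222-5p counts were 5 in r1, 14 in r2 and 11 in r4, against 28 in m1, 18 in m3 and 17 in m4. At these low counts the scaled difference of -1.23 ± 0.37 was called (adjusted p = 0.0222), but not without m1 (adjusted p = 0.0764) or r4 (0.0725), nor with library totals alone (0.126). This name passed the filter on low counts only through its mouse libraries, the group where it was higher, so its difference is given as a description.

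**Figure D3:**
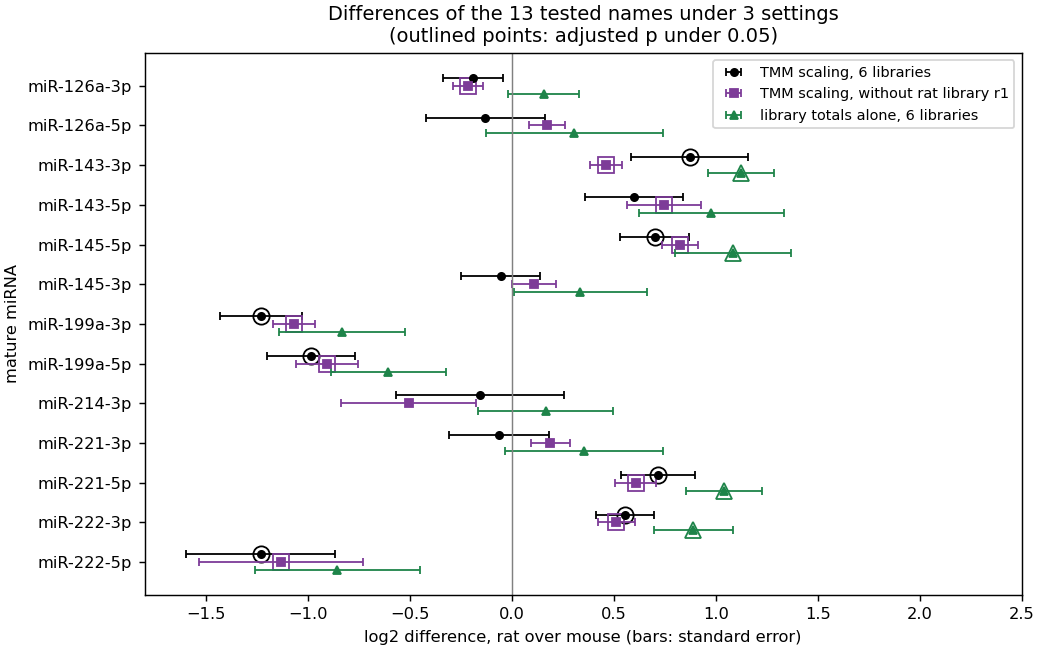
Log2 difference, rat over mouse, of the 13 tested names (points) with standard errors (bars) under 3 settings; outlined points have an adjusted p under 0.05. The differences of miR-143-5p, miR-145-5p, miR-222-3p, miR-221-5p and miR-143-3p lie above 0 and those of both miR-199a arms and miR-222-5p below 0 in each setting, while miR-126a-3p, miR-126a-5p, miR-145-3p, miR-214-3p and miR-221-3p change sign between settings.

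Arm usage, the share of a hairpin's counts on its 5p arm, needs no scaling between the tables. The log2 ratio of the arms, with 0.5 added to each count, was fitted by limma over the 183 hairpins that had 2 arms in each table and whose arms together reached 50 counts in each of the 6 libraries. Of the 6 member hairpins in this test, miR-145 had more and miR-222 less 5p arm in rat and 4 were not called, against 24.0% of all hairpins called. The 5p share of miR-145 was 70.8% in r1, 67.5% in r2 and 69.0% in r4 of rat, against 59.0% in m1, 57.0% in m3 and 54.3% in m4 of mouse. The species did not overlap, and the log2 ratio differed by 0.77 ± 0.18 (adjusted p = 0.0285). The call was lost without any 1 library but r1, with adjusted p of 0.0526 to 0.122. The 5p share of miR-222 was 0.225% in r1, 0.359% in r2 and 0.288% in r4, against 1.58% in m1, 0.794% in m3 and 0.767% in m4. Library m1 had the largest share, and the log2 ratio differed by -1.75 ± 0.35 (adjusted p = 0.0169, and 0.0514 without r4). It rests on 5 to 14 counts of miR-222-5p per rat library and 17 to 28 per mouse library. With 5 added to each count in place of 0.5 it was -1.46 (adjusted p = 0.0102).

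Elsewhere r1 carried much of the variation in arm usage. For miR-126a the 5p share was 1.11% in r1, 2.68% in r2 and 2.60% in r4, against 2.06%, 2.02% and 2.01% in m1, m3 and m4. The log2 ratio differed by -0.04 ± 0.38 (adjusted p = 0.951), and without r1 by 0.39 (adjusted p = 0.0454). For miR-221 the share was 27.5% in r1, 13.2% in r2 and 14.1% in r4, against 12.2%, 10.5% and 9.43% in m1, m3 and m4. The log2 ratio differed by 0.83 ± 0.39 and was not called (adjusted p = 0.194), nor was it without r1, at 0.41 (adjusted p = 0.123). The mouse hairpin Mir221 is shown with its arms in capitals, since r1 took more of its 5p arm while it took less of the 5p arms of miR-126a and miR-143.
Mir221 hairpin: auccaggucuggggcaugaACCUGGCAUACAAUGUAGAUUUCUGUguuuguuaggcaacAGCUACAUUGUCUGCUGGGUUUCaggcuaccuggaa
The miR-143 share was 0.0595% in r1, 0.150% in r2 and 0.187% in r4, against 0.127% to 0.157% in mouse. Its log2 ratio differed by -0.23 ± 0.45 (adjusted p = 0.760), and without r1 by 0.27 (adjusted p = 0.252). The miR-199a share was 11.3% to 13.9% in rat and 9.47% to 11.3% in mouse (adjusted p = 0.360). It takes the mouse 3p counts from the miR-199a-3p row alone. Where the mouse reads were divided in equal parts with miR-199b-3p, the mouse 5p share would be lower. Arm usage was not tested with that sum, so the missing call depends on how reads were assigned.

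**Figure D4:**
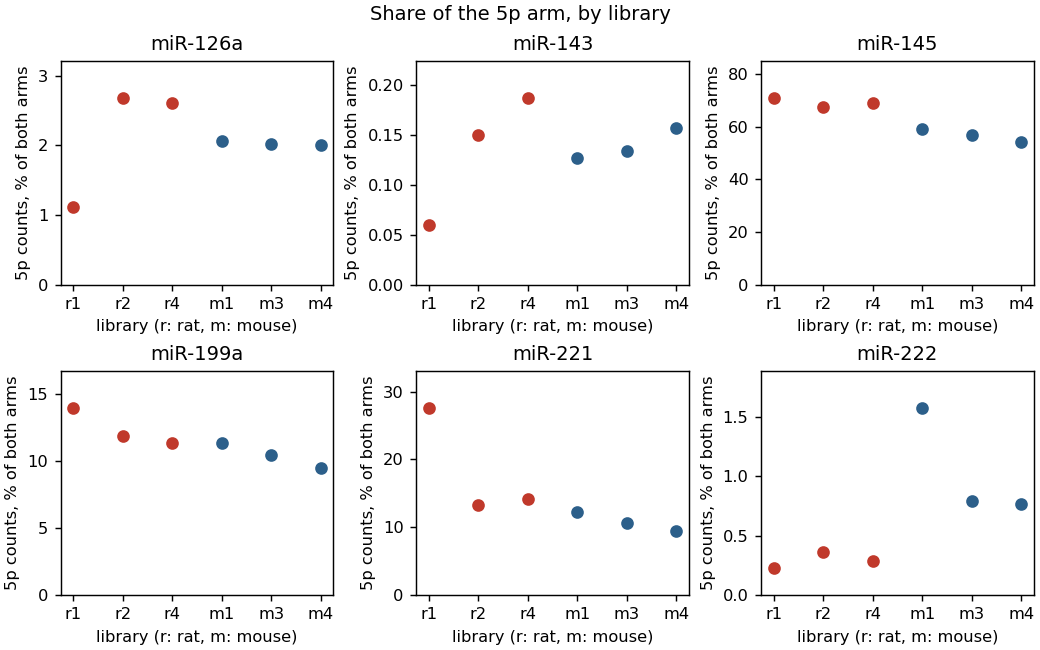
Share of the 5p arm in the counts of both arms, in percent, for the 6 member hairpins in each library (rat in red, mouse in blue; each panel has its own scale from 0). The rat shares of miR-145 (67.5% to 70.8%) lie above and those of miR-222 (0.225% to 0.359%) below all mouse shares, and r1 stands apart for miR-126a, miR-143 and miR-221.

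Ratios of partner miRNAs were taken within a library, so they need no scaling between the tables. The ratio of miR-214-3p to miR-199a-3p is not of a single locus, since miR-199a-3p is made from 2 loci and miR-199b-3p has the same sequence. For miR-143-3p to miR-145-5p the ratio was 222 in r1, 83.3 in r2 and 86.7 in r4 of rat, against 104 in m1, 113 in m3 and 111 in m4 of mouse. Library r1 lay above all mouse libraries, r2 and r4 below them. The log2 ratio differed by 0.10 (exact two-sided permutation p = 1.0), and without r1 by -0.36 (p = 0.1). For miR-221-3p to miR-222-3p it was 0.458 in r1, 0.910 in r2 and 0.997 in r4, against 1.15 in m1, 1.21 in m3 and 1.21 in m4. So miR-221-3p was below miR-222-3p in each rat library and above it in each mouse library. The log2 ratio differed by -0.67 (exact p = 0.1), and by -0.32 without r1 (exact p = 0.1). For miR-214-3p to miR-199a-3p it was 0.0475 in r1, 0.0161 in r2 and 0.0163 in r4, against 0.0112 in m1, 0.0134 in m3 and 0.00781 in m4. All rat libraries were higher, with a log2 difference of 1.14 (exact p = 0.1). It rests on 18 to 40 counts of miR-214-3p per library, and was 0.62 without r1 (exact p = 0.2). With both arms summed it was 0.53 (exact p = 0.6), and the species overlapped. With miR-199b-3p added to miR-199a-3p in mouse, the sum described above, it was 2.14 (exact p = 0.1).

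**Figure D5:**
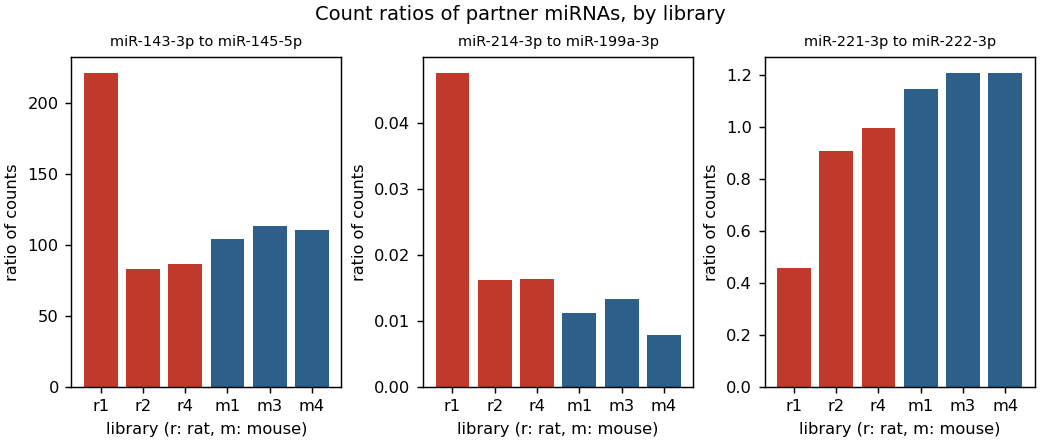
Ratio of the counts of 2 partner miRNAs in each library (bars from 0; rat in red, mouse in blue). The ratio of miR-221-3p to miR-222-3p is under 1 in rat (0.458 to 0.997) and over 1 in mouse (1.15 to 1.21), and r1 departs from r2 and r4 in each panel.

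Other miRNAs with known roles in vessels and mesenchyme, a list of 20 that could all be tested, were lower in rat more often than higher. Of these, 10 were called lower, 1 higher and 9 were not called, with a median log2 difference of -0.40 against 0.03 for all names. Over all names 26.2% were called lower, 24.1% higher and 50.4% in either direction, so the total of called names on the list was near the background. With library totals alone 2 were lower and 5 higher, with a median of -0.03, where 11.7% of all names were called lower and 32.3% higher. The largest called difference was that of miR-10a-5p, a Hox cluster miRNA of endothelium, at 1.58 CPM ± 0.675 in rat and 8.04 CPM ± 4.55 in mouse (SD, n = 3 each; scaled). Its log2 difference was -2.40 ± 0.53 (adjusted p = 0.00590). The next were miR-195a-5p, of the miR-15 family (-1.14 ± 0.16, adjusted p = 0.000619), and miR-27b-3p, of a cluster that promotes vessel sprouting (-0.90 ± 0.16, adjusted p = 0.00208). The most abundant on the list over both species, miR-181b-5p, which restrains endothelial inflammation, was at 6340.1 CPM ± 1078 in rat and 11189.9 CPM ± 365 in mouse (SD, n = 3 each). It differed by -0.82 ± 0.17 on the log2 scale (adjusted p = 0.00412). The 1 called rise was that of miR-21a-5p (rat miR-21), a miRNA of fibroblasts and injured vessels, at 0.51 ± 0.15 (adjusted p = 0.0183). Larger in size but not called was the rise of miR-10b-5p, at 1.18 ± 0.50 (adjusted p = 0.0780), opposite in direction to miR-10a-5p. At an unadjusted p under 0.05 by edgeR, 4 of the list were higher and 10 lower.

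The pattern of each main arm over the 6 libraries was set beside those of 129 other tested miRNAs with at least 100 scaled CPM in both species. Likeness was the root mean square distance of log2 levels, each centred on its own mean. The closest to miR-143-3p was miR-30e-3p, at 0.068 log2 units, which also peaked in r1 with 7548 scaled CPM against 3264 in r2 and 3714 in r4. The closest to miR-126a-3p was miR-598-3p, at 0.058, and the closest to miR-221-3p was miR-9-3p, at 0.10, whose r1 level of 1046 lay below 1914 in r2 and 1805 in r4. For miR-222-3p it was miR-543-3p at 0.11, for miR-145-5p miR-361-5p at 0.14, for miR-199a-3p miR-27b-3p at 0.20 and for miR-214-3p miR-100-5p at 0.30. These distances were taken over the same 6 libraries, 3 per species, for every miRNA, and carry no test.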

How the data were processed

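Per the labels' protocols, total RNA with miRNA was taken from dissected retinas using the miRNeasy mini kit and sequenced from 1 end for 50 bases; the protocol names rat eyes for both species. In 1 table per species the authors deposited whole-number counts for each mature miRNA name, with no normalization. How reads were trimmed, aligned, and assigned when they fit several names is not given in the sources used here, and library batch cannot be told apart from species. Column numbers differ from the labels' replicate numbers, so columns were assigned to a species only.

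Names were joined after removing the species prefix, then filtered (filterByExpr), scaled (TMM) and tested with edgeR 4.0.16 in R 4.3.3; arms were tested with limma 3.58.1, and ratios and sums with exact permutation tests. The scripts were tested on simulated data. Alternatives were other scalings, filters and name joins, DESeq2 1.42.0, other arm settings, and leaving out each library. The members and lists were chosen with earlier results of these data known. The rule for names gave all 7 main arms in full and other rows by counts, the miRNA most alike each main arm, and from the list of other vascular miRNAs the 3 largest called differences and the most abundant. The names miR-21a-5p and miR-10b-5p were added after their values were seen. Counting limits take reads as independent, which PCR copies are not.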

Additional observations from a re-analysis of the deposited data

Results flagged for a closer look

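Of the member rows that entered no comparison between species, 2 held a signal above the limit of 3 counts, both in the mouse table. The name miR-199b-3p had a mean of 88.7 CPM of all counts, and its counts matched those of miR-199a-3p, whose sequence is the same, to within 5 counts in each library. The name miR-199b-5p had a mean of 0.831 CPM, from 20 to 27 counts per library.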

How the results depend on the processing

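No paired analysis was possible because the columns carry other numbers than the labels' replicates, so the planned fit with a replicate block was not run. Over all names 215 were called, against 171 (without m1) to 313 (without r1) when 1 library was left out. Of the members, 4 were called higher and 3 lower; leaving out 1 library gave 2 (without m1 or m4) to 5 (without r1) higher and 2 (without m1) to 5 (without r1) lower. Without r1 the calls added miR-126a-3p and miR-143-5p. The counts called lower also hold miR-214-5p without r1, r2, r4 or m4 and with no filter on low counts; it is at 0 in every rat library and enters only through mouse, so that call is no support. Library totals alone gave 0 members lower by edgeR (1 at an unadjusted p under 0.05; the DESeq2 test, with its own scaling, gave 3), and turned the uncalled differences of miR-126a-3p (0.16), miR-126a-5p (0.31), miR-145-3p (0.34), miR-214-3p (0.17) and miR-221-3p (0.35). When 1 library was left out, miR-126a-5p ranged from -0.32 to 0.17, miR-145-3p from -0.15 to 0.11, miR-214-3p from -0.51 to 0.12 and miR-221-3p from -0.20 to 0.19. The member hairpins called for arm usage, 2 with all libraries, were 0 (without r4) to 3 (without r1) by limma, and 2 had an unadjusted p under 0.05 without r4; the arm ratio of miR-126a ranged from -0.26 to 0.39 and that of miR-143 from -0.55 to 0.27. The difference in the ratio of miR-143-3p to miR-145-5p ranged from -0.36 (without r1) to 0.34. Of the 20 other vascular and mesenchymal miRNAs, 1 was called higher, against 5 with library totals alone, 2 with DESeq2 size factors, without the filter or with more names joined, 3 with the DESeq2 test and 0 to 4 without 1 library by edgeR (0 without m3 or m4, with 3 and 1 at an unadjusted p under 0.05); 10 were called lower, against 2 with library totals alone and 7 to 12 without 1 library. The direction and call of the summed share and of the other ratios did not change under any alternative run, but 3 against 3 libraries cannot pass 0.05. Limma, with the spread shared over all arm ratios, gave the ratio of miR-221-3p to miR-222-3p an adjusted p of 0.213. The cause of these changes was not tested. Counts under 50 per library limit miR-214 and miR-222-5p.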
